A study of Mus musculus with 9 samples.

Results

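Gxylt2 and the other glycosyltransferases that build sugar chains on the epidermal growth factor (EGF) repeats of Notch receptors were followed in sorted mouse skin cells of 2 Flg genotypes. The set holds 8 genes, Pofut1, Lfng, Mfng, Rfng, Poglut1, Gxylt1, Gxylt2 and Xxylt1, of 49671 gene rows in the count table. They were picked by symbol for their role, with the genotype difference of Gxylt2 in these same libraries already known, so the genotype values of the 8 genes are given as a description without a test. The study asked how loss of filaggrin, which packs keratin filaments in the outermost epidermis, alters keratinocyte transcripts. It compared CD45- CD49f+ cells of 5 Flg wt/wt samples (both alleles wild type) with those of 4 Flg ko/ko samples (both alleles knocked out). CD45 is the pan-leukocyte surface protein and CD49f the integrin alpha-6 chain of basal cells. Polyadenylated RNA was amplified with the SMARTseq2 protocol and sequenced. The labels used here give no strain, age, sex or treatment for either genotype. Each sample has its own identifier in its title and is taken as a separate animal; if that is not so, the p-values measure only the spread between these samples.

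The 9 libraries held 15601859 to 23200440 counts each. On these plain totals 1 count was worth 0.0431 to 0.0641 CPM (counts scaled to a library total of 1000000). Gene values in CPM use library sizes that were scaled further, as described with the genotype contrast. The wt/wt replicates 1 to 5 gave 0, 0, 6, 2 and 4 counts of Flg, the targeted gene, and the ko/ko replicates 1 to 4 gave 2, 0, 0 and 4, too few to check the genotype labels. The cells are labelled epidermal, yet the fibroblast proteoglycan gene Dcn was at 10868 to 21870 CPM and the basal keratin gene Krt14 at 858 to 1834 CPM, so fibroblast transcripts were abundant in every library. In bulk RNA of such a mixture, fewer cells of a type and less RNA per cell cannot be told apart, and this applies to every level given here. A group of 11 predicted genes around Gm10800 made up 0.000409% to 1.61% of a library and was richest in ko/ko replicate 4, ko/ko replicate 1 and wt/wt replicate 1.

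Notch receptors carry long rows of EGF repeats in their extracellular part, and many of these repeats are glycosylated on serine or threonine in the endoplasmic reticulum and Golgi. One chain starts with O-fucose, added by POFUT1 and extended with N-acetylglucosamine by the Fringe enzymes LFNG, MFNG and RFNG, which changes how the receptor answers to Delta and Jagged ligands. Another starts with O-glucose, added by POGLUT1 and capped by xylose: GXYLT1 or GXYLT2 adds the first xylose and XXYLT1 the next one. In the epidermis Notch signalling is known for its part in the switch from basal to spinous keratinocytes and in the hair follicle.

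The 250 bases before the RefSeq start of Gxylt2, Gxylt1 and Xxylt1 are shown because these genes encode the xylose-adding enzymes of the set. Sequences are from RefSeq, build GRCm38.p6, read 5′ to 3′ on the strand of the gene. The window of Gxylt2 is chr6:100704484-100704733 on the plus strand, that of Gxylt1 chr15:93275180-93275429 on the minus strand and that of Xxylt1 chr16:31081433-31081682 on the minus strand. Capitals mark the motif TGGGAA or its reverse complement TTCCCA, the core letters bound by RBPJ, the DNA-binding partner of activated Notch.
Gxylt2: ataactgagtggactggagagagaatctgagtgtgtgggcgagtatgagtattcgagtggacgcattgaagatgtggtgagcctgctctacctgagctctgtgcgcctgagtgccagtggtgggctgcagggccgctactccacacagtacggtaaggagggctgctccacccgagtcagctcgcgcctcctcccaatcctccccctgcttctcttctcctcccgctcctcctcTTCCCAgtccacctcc
Gxylt1: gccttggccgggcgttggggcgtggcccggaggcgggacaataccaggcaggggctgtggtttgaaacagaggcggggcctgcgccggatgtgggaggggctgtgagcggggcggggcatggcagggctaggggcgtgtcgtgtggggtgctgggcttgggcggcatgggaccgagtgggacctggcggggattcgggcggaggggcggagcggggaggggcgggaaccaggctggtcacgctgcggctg
Xxylt1: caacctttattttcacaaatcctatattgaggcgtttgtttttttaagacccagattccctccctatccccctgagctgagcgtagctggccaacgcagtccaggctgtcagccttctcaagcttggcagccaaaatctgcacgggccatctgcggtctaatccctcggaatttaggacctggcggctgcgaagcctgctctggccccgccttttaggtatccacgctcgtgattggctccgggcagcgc

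The Gxylt2 window held 1 match, on the strand opposite to the gene, with its first base 16 bases before the start. The Gxylt1 and Xxylt1 windows held none. Both strands were searched for TGGGAA and for the longer GTGGGAA, every match of which also holds the shorter motif. TGGGAA was found in 21.6% of 32851 RefSeq windows of this length (7094) and GTGGGAA in 5.42% (1779). Of the 7 members with a window, Poglut1 had 1 match to TGGGAA, Lfng had 2, one of which extends to GTGGGAA, and Pofut1 and Rfng had none. The Gxylt windows differed in base composition: that of Gxylt1 had 74.0% G and C bases and 22 CpG pairs, that of Gxylt2 59.6% and 10 and that of Xxylt1 55.2% and 13, beside a median of 52.4% and 6 over all windows. A match is a description of these letters only.

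The genotype contrast was summarised with edgeR's quasi-likelihood fit over 18435 genes that passed its filter on low counts, and all 8 members passed. A log2 fold change is ko/ko over wt/wt, and gene values are CPM of library sizes scaled by the trimmed mean of M-values (TMM). The median log2 fold change of all tested genes was -0.03, and 47.4% of them were positive. The median lay at 0.08 with library totals alone, so differences of about 0.1 depend on the scaling. Among the members 6 were positive and 2 negative, with a median of 0.58. None of the 8 had an adjusted p under 0.05 with edgeR and Benjamini-Hochberg adjustment, beside 0.00542% of all tested genes. At an unadjusted p under 0.05, 4 were higher in ko/ko (Gxylt1, Gxylt2, Xxylt1 and Pofut1), beside 8.86% of all tested genes, and 0 were lower, beside 6.42%. DESeq2 called 1 higher (Gxylt2), beside 2.53%, and limma voom with sample quality weights called 2 (Gxylt1 and Gxylt2), beside 6.6%. The genotypes did not overlap for 2 members, Gxylt2 and Xxylt1, both higher in ko/ko, beside 3.51% of tested genes that did not overlap in that direction. Because the members were chosen with this contrast known, nothing is read from these counts.

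**Figure D1:**
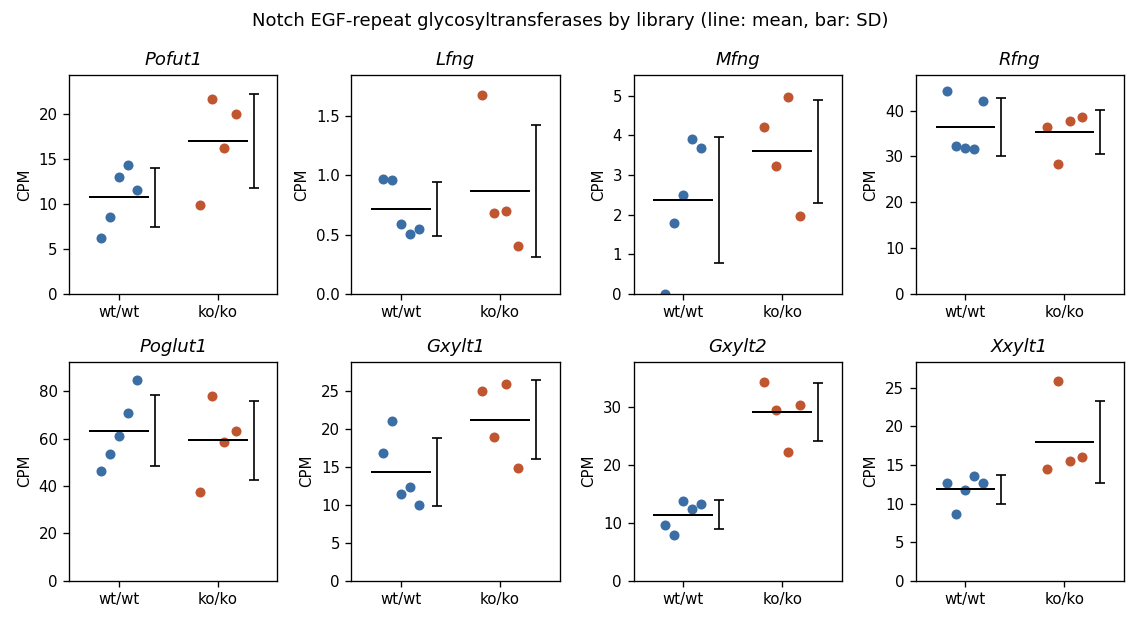
CPM of the 8 members in each library, one panel per gene with its own axis from 0. Points are libraries (5 wt/wt, 4 ko/ko), lines the group means and bars the SD. Gxylt2 lies between 7.93 and 13.7 CPM in wt/wt and between 22.3 and 34.4 CPM in ko/ko, and only Gxylt2 and Xxylt1 have groups that do not overlap.

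Gxylt2 had the widest gap between the genotypes among the members. The gene (ENSMUSG00000030074) spans chr6:100704734-100810913 on the plus strand in mm10, the build of the count table, and encodes one of the glucoside xylosyltransferases. Its values were 9.56, 7.93, 13.7, 12.4 and 13.2 CPM in wt/wt replicates 1 to 5 and 34.4, 29.5, 22.3 and 30.4 CPM in ko/ko replicates 1 to 4. Every ko/ko library was above every wt/wt library, and the lowest ko/ko value was that of replicate 3. The means were 11.4 ± 2.50 CPM (SD, n = 5) and 29.1 ± 5.05 CPM (SD, n = 4), with a log2 fold change of 1.36 (SE 0.20), or 2.56-fold. These values rest on 165 to 287 counts per wt/wt library and 475 to 652 per ko/ko library. The predicted genes Gm15576 and Gm19692 lie inside Gxylt2 on the same strand, share no exon bases with it, and had 16 and 62 counts over all 9 libraries together. The log2 fold change ran from 1.11 to 1.48 over 21 other settings of the fit. It was 1.13 (SE 0.25) when the 3 libraries with the most Gm10800-group reads were left out.

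Gxylt1, the paralogue that adds the same first xylose, was less separated by genotype. It (ENSMUSG00000036197, chr15:93239742-93275161, minus strand) stood at 16.8, 20.95, 11.4, 12.25 and 10.01 CPM in wt/wt replicates 1 to 5. In ko/ko replicates 1 to 4 it stood at 24.9, 18.9, 25.9 and 14.9 CPM. The groups overlapped, with ko/ko replicates 1 and 3 above the wt/wt maximum and replicates 2 and 4 within the wt/wt range. The means were 14.3 ± 4.52 CPM (SD, n = 5) and 21.15 ± 5.21 CPM (SD, n = 4), and the log2 fold change was 0.57 (SE 0.25). Within wt/wt, replicates 1 and 2 were the highest for Gxylt1 and the lowest for Gxylt2. The same 2 libraries had the lowest wt/wt shares of fibroblast marker counts, 1.53% and 1.46%, beside 2.56% to 3.03% in the other 3. Fibroblast genes were not alone in this. Shares of mural genes (0.0243% and 0.0228%) and of melanocyte and Schwann genes (0.0254% and 0.0286%) were also the lowest of wt/wt there. Shares of lymphatic endothelial genes (0.0530% and 0.0550%), basal keratinocyte genes (0.172% and 0.308%) and the Gm10800 group (0.303% and 0.0388%) were the highest. The part of any of these shares in the paralogues' values was not tested. Within ko/ko, replicate 3 was the highest for Gxylt1 and the lowest for Gxylt2, whereas replicate 1 was high for both.

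Levels of the pair were compared per length, in RPKM, the CPM divided by the exon length in kilobases. Gxylt2 made up 30.9%, 23.0%, 48.7%, 44.4% and 50.9% of the summed Gxylt1 and Gxylt2 RPKM in wt/wt replicates 1 to 5. In ko/ko replicates 1 to 4 its share was 52.1%, 55.2%, 40.4% and 61.7%. The shares overlapped between the genotypes, with ko/ko replicate 3 inside the wt/wt range and the other ko/ko libraries above it. The summed level did not overlap: it was 3.04 to 4.06 RPKM in wt/wt, mean 3.47 ± 0.392 (SD, n = 5), and 5.79 to 7.76 RPKM in ko/ko, mean 6.58 ± 0.838 (SD, n = 4). Within each genotype the SD of the sum, relative to its mean, was smaller than that of either gene. The RPKM of Poglut1, whose product makes the acceptor glucose, was 4.03 ± 1.35 times that sum in wt/wt (SD, n = 5) and 1.99 ± 0.705 times in ko/ko (SD, n = 4). That ratio ran from 2.75 to 5.99 in wt/wt and from 1.04 to 2.66 in ko/ko, without overlap. The sum and the ratio both contain the Gxylt2 values known when the gene was chosen, so neither is a further result beside Gxylt2. Poglut1 itself overlapped between the genotypes.

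**Figure D2:**
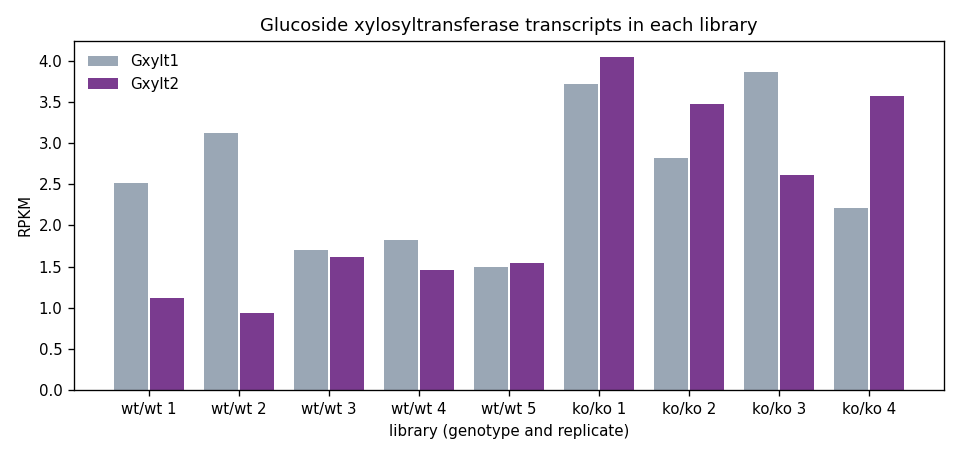
RPKM of Gxylt1 (grey) and Gxylt2 (purple) in each of the 9 libraries, as bars from 0. Gxylt1 is the higher of the pair in 5 libraries, 4 of them wt/wt and 1 ko/ko, and the sum of both is at most 4.06 RPKM in wt/wt and at least 5.79 RPKM in ko/ko.

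Xxylt1 encodes the enzyme that adds the outer xylose after GXYLT1 or GXYLT2 has acted. The gene (ENSMUSG00000047434) lies at chr16:30955627-31081432 on the minus strand. It was at 12.6, 8.60, 11.8, 13.5 and 12.6 CPM in wt/wt replicates 1 to 5 and at 14.45, 25.95, 15.6 and 16.03 CPM in ko/ko replicates 1 to 4. The groups did not overlap, but the gap between 13.5 and 14.45 CPM was narrow, and ko/ko replicate 2 stood well above the other 3. The means were 11.8 ± 1.91 CPM (SD, n = 5) and 17.997 ± 5.34 CPM (SD, n = 4), with a log2 fold change of 0.61 (SE 0.22). Without ko/ko replicate 2 it was 0.38 (SE 0.19).

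Poglut1 starts the chain that the xylosyltransferases extend. It (ENSMUSG00000034064, chr16:38525137-38550258, minus strand) was at 46.5, 53.6, 60.9, 70.8 and 84.9 CPM in wt/wt replicates 1 to 5 and at 37.5, 77.9, 58.35 and 63.3 CPM in ko/ko replicates 1 to 4. The genotypes overlapped almost entirely, and only ko/ko replicate 1 lay outside the wt/wt range. The means were 63.3 ± 15.04 CPM (SD, n = 5) and 59.25 ± 16.7 CPM (SD, n = 4). The log2 fold change of -0.10 (SE 0.23) turned positive in 5 of 21 other settings.

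On the O-fucose arm, Pofut1 adds the fucose that Fringe enzymes extend. It (ENSMUSG00000046020, chr2:153241533-153270247, plus strand) was at 6.255, 8.60, 13.0, 14.3 and 11.6 CPM in wt/wt replicates 1 to 5 and at 9.885, 21.7, 16.3 and 20.03 CPM in ko/ko replicates 1 to 4. The 3 ko/ko libraries other than replicate 1 were above the wt/wt maximum, and replicate 1 lay within the wt/wt range. The means were 10.8 ± 3.30 CPM (SD, n = 5) and 17.0 ± 5.25 CPM (SD, n = 4), with a log2 fold change of 0.66 (SE 0.28). It was 1.03 with the Gm10800 group as a covariate.

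The Fringe genes differed in level more than in genotype. Rfng (ENSMUSG00000025158, chr11:120780746-120784207, minus strand) was at 44.3, 32.2, 31.8, 31.7 and 42.15 CPM in wt/wt replicates 1 to 5 and at 36.5, 28.4, 37.8 and 38.7 CPM in ko/ko replicates 1 to 4. These ranges overlapped, and the log2 fold change of -0.04 (SE 0.16) changed sign in 5 of 21 other settings. Mfng (ENSMUSG00000018169, chr15:78755882-78773475, minus strand) was at 0, 1.78, 2.49, 3.915 and 3.67 CPM in wt/wt replicates 1 to 5 and at 4.22, 3.215, 4.97 and 1.97 CPM in ko/ko replicates 1 to 4. The 0 of wt/wt replicate 1, which allows up to 0.153 CPM (3 counts, counting error only), stood apart from the other 8 libraries, which had 37 to 106 counts. The Mfng log2 fold change was 0.60 (SE 0.76), 0.28 (SE 0.38) without that library and 1.87 (SE 0.87) with the Gm10800 group as a covariate. Lfng (ENSMUSG00000029570, chr5:140607320-140615545, plus strand) had only 8 to 29 counts per library. Its values were 0.966, 0.961, 0.586, 0.508 and 0.551 CPM in wt/wt replicates 1 to 5 and 1.68, 0.679, 0.703 and 0.405 CPM in ko/ko replicates 1 to 4. They overlapped, and the Lfng log2 fold change was 0.27 (SE 0.49) with all libraries and -0.26 without ko/ko replicate 1.

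The members were then ordered by level per length over all 9 libraries, and neighbours were compared within libraries. The level of Gxylt2 includes the ko/ko values known when it was chosen, so its place is a description. With the authors' exon lengths Rfng came first with 14.4 ± 2.14 RPKM (SD, n = 9), then Poglut1 with 13.2 ± 3.20 and Xxylt1 with 4.27 ± 1.41. Gxylt1 followed with 2.59 ± 0.863 RPKM, Gxylt2 with 2.26 ± 1.18 and Pofut1 with 1.37 ± 0.520. Mfng with 1.03 ± 0.535 RPKM and Lfng with 0.312 ± 0.154 came last. Rfng thus had the highest mean of the Fringe genes, and the glucose-adding Poglut1 had a higher mean than every xylosyltransferase.

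Of the 5 neighbouring pairs without Gxylt2, 2 differed beyond their spread in an exact two-sided sign-flip permutation test over the 9 libraries, adjusted over all 7 pairs. Poglut1 exceeded Xxylt1 by 1.64 on the log2 RPKM scale, in 9 of 9 libraries (exact p = 0.00391, the smallest that 9 libraries can give; adjusted p = 0.0137). Xxylt1 exceeded Gxylt1 by 0.74 in 8 of 9 libraries (exact p = 0.0156, adjusted p = 0.0365), a call that held in only 1 of the 9 fits with a library left out, without wt/wt replicate 2. Not distinguished were Rfng and Poglut1 (difference 0.16, exact permutation adjusted p = 0.336), Pofut1 and Mfng (0.75, 0.170) and Mfng and Lfng (1.22, 0.170). Gxylt2 was above Pofut1 in 9 of 9 libraries, by 0.33 in wt/wt and 1.04 in ko/ko on the log2 RPKM scale. Gxylt1 was above Gxylt2 by 0.65 in wt/wt, and the difference was -0.13 in ko/ko. Without wt/wt replicate 1, the library with no Mfng count, Mfng exceeded Lfng by 1.83 (exact permutation adjusted p = 0.0182). The order depends on the length used. Rfng over Poglut1 turned to -0.50 with the longest transcript (exact permutation adjusted p = 0.0456) and to -0.51 with coding length (exact permutation adjusted p = 0.0365), so that Poglut1 was then the higher of the pair. With coding length Pofut1 exceeded Mfng by 2.26 (exact permutation adjusted p = 0.0137) and the difference of Xxylt1 over Gxylt1 was -0.084. Gxylt2 over Pofut1 was 0.25 with coding length and -0.028 with the longest transcript.

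**Figure D3:**
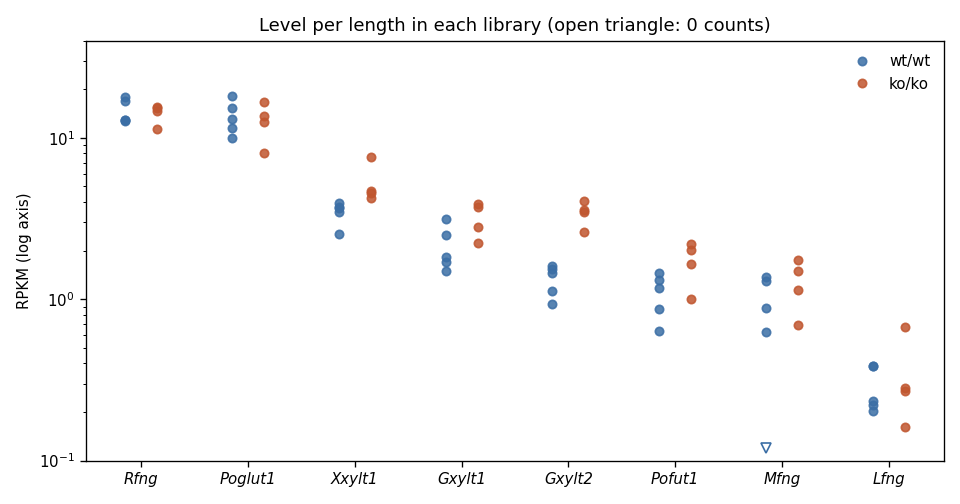
RPKM (log axis) of each member in each library, wt/wt in blue and ko/ko in orange, in order of the mean log2 RPKM. The open triangle marks the wt/wt library with 0 Mfng counts. Rfng and Poglut1 share the top range of 8.04 to 18.2 RPKM, and Lfng lies lowest in mean, from 0.161 to 0.669 RPKM.

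Members were also compared by the likeness of their profiles, measured as the root mean square difference of mean-centred log2 CPM over the 9 libraries, in which 0 means identical. The closest of the 28 member pairs were Xxylt1 and Pofut1 (0.38) and Gxylt1 and Lfng (0.40). The distance of Gxylt2 to Xxylt1 was 0.50 and to Gxylt1 0.71. Mfng was the farthest from the others, at 1.36 to 1.81, with its library of 0 counts included. All these values share the same libraries and scaling, so they are descriptions.

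Over 18434 other tested genes the median distance to Gxylt2 was 0.85. The 5 closest were Clmp (0.21), a cell adhesion molecule of epithelial junctions, Capns1 (0.24), the small regulatory subunit of calpain proteases, the predicted microRNA gene Gm24270 (0.26), Dusp15 (0.27), a dual-specificity phosphatase, and Rap2a (0.27), a small GTPase. Gm24270 has an exon length of only 57 bases and had 20 to 85 counts per library. Whether its reads came from a longer overlapping transcript was not tested. In all 5 genes, every ko/ko library was above every wt/wt library. Their closeness includes the genotype difference used to choose Gxylt2. After centring within each genotype the median distance was 0.45 and the 5 closest were Twist1 (0.083), a mesenchymal transcription factor gene, Atp6v0d1 (0.084), a subunit of the vacuolar proton pump, Fam92a (0.086), Aurkaip1 (0.088) and Anapc13 (0.093), a subunit of the anaphase-promoting complex. The Twist1 mean of wt/wt was 17.6 ± 3.67 CPM (SD, n = 5), that of ko/ko 26.7 ± 4.003 CPM (SD, n = 4), and the genotypes did not overlap. Of all tested genes, 3.51% did not overlap in that direction. Atp6v0d1, Fam92a, Aurkaip1 and Anapc13 overlapped between the genotypes, with log2 fold changes of 0.30, -0.30, -0.05 and -0.13. No gene was in both sets of 5.

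**Figure D4:**
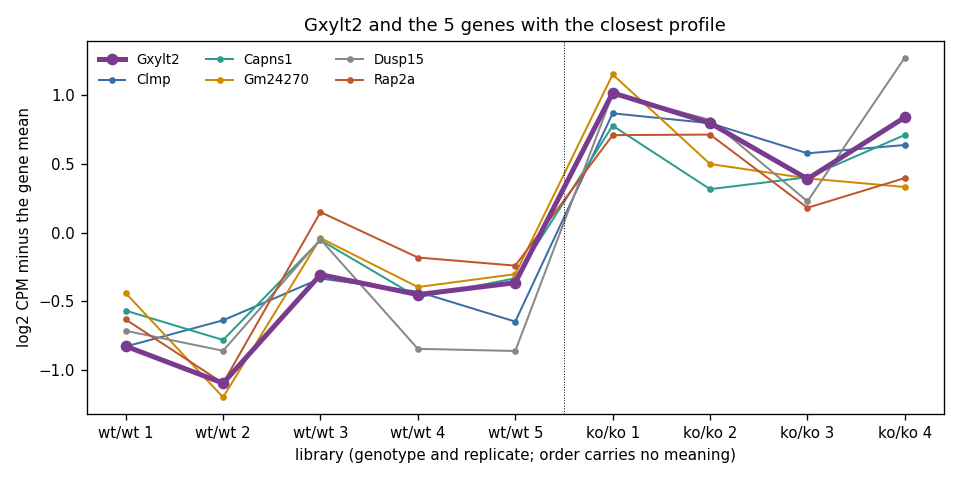
Log2 CPM minus the mean of each gene in the 9 libraries, for Gxylt2 (thick purple line) and the 5 genes with the smallest distance to it (Clmp, Capns1, Gm24270, Dusp15 and Rap2a, distances 0.21 to 0.27). The lines join libraries only to guide the eye; all 6 genes are lower in each wt/wt library than in each ko/ko library.

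The pathway around the members was followed in 8 lists with 62 genes, 59 of which were tested; Dll3, Hes5 and Nrarp had too few counts. None had an adjusted p under 0.05 in edgeR, higher or lower, beside 0.00542% of all tested genes higher and 0% lower. At an unadjusted p under 0.05, 4 were higher (Slc35a3, Notch4, Rbpj and Mib1), beside 8.86%, and 5 lower (B4galt1, Fpgt, Notch2, Dll4 and Dtx1), beside 6.42%. DESeq2 and voom each called 1 higher (Mib1) and 1 lower (Dll4), beside 2.53% and 6.6% of genes called higher and 1.11% and 3.17% called lower. The genotypes did not overlap for 2 list genes, B4galt1 and Dll4, both lower in ko/ko, beside 2.74%. By sign, 21 of the 59 were positive and 38 negative, with a median of -0.12 beside -0.03 for all tested genes and 0.58 for the members.

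Other enzymes of the EGF-repeat O-glycans had mostly negative log2 fold changes: 1 of 5 was positive, and the median was -0.14. B4galt1, a galactosyltransferase that extends the fucose chain, had a wt/wt mean of 56.0 ± 7.06 CPM (SD, n = 5) and a ko/ko mean of 45.3 ± 4.11 CPM (SD, n = 4). Its log2 fold change of -0.30 (SE 0.14) had an edgeR adjusted p of 0.320. Kdelc1, also named Poglut2, which glucosylates EGF repeats at another residue, was nearly level at 39.3 ± 2.46 and 40.8 ± 6.11 CPM (SD, n = 5 and 4). Galnt11, which adds O-linked N-acetylgalactosamine, had a log2 fold change of -0.24 (SE 0.17). The thrombospondin-repeat enzymes Pofut2 and B3glct, a fucose pathway on another type of repeat, had values of -0.12 and -0.04.

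Genes that supply the nucleotide sugars were split, with 5 of 14 positive and a median of -0.11. Uap1, which makes UDP-N-acetylglucosamine, the donor of the Fringe enzymes, was at 1142 ± 294 CPM in wt/wt and 1369 ± 303 CPM in ko/ko (SD, n = 5 and 4). Ugdh, which makes the precursor of UDP-xylose, was at 651 ± 217 and 609 ± 149 CPM, and Ugp2, which makes UDP-glucose, at 147 ± 33.6 and 121 ± 9.59 CPM. All 3 overlapped between the genotypes. Other enzymes that use xylose showed 3 of 9 positive and a median of -0.09. Xylt1, which starts glycosaminoglycan chains with xylose, had a log2 fold change of 0.19 (SE 0.20), Rxylt1, an enzyme of the dystroglycan chain, -0.12 (SE 0.17), and Fam20b, a xylose kinase, -0.32 (SE 0.20).

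Among the receptors that carry the EGF repeats, Notch2 was at 22.9 ± 3.07 CPM in wt/wt and 17.0 ± 1.55 CPM in ko/ko (SD, n = 5 and 4), and its log2 fold change was -0.43 (SE 0.16; adjusted p = 0.243 with edgeR). Notch1 was at 14.4 ± 5.23 and 10.1 ± 3.65 CPM, and Notch3 at 6.74 ± 1.86 and 7.89 ± 3.63 CPM. The receptors were thus 2 positive and 2 negative, the fourth being Notch4, and none passed. Of the ligands, Dll4 showed the largest difference on all lists: 37.0, 21.4, 17.7, 18.9 and 22.1 CPM in wt/wt replicates 1 to 5 and 15.4, 7.34, 12.4 and 7.48 CPM in ko/ko replicates 1 to 4. Each ko/ko library was below each wt/wt library. The log2 fold change was -1.14 (SE 0.29), with an adjusted p of 0.152 in edgeR, 0.0133 in DESeq2 and 0.0159 in voom. Jag1 overlapped widely, at 21.8 ± 12.1 and 27.6 ± 7.41 CPM, and Dll1 had a log2 fold change of -0.35 (SE 0.21).

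Of 16 genes for receptor processing and nuclear partners, 9 were positive, with a median of 0.03. Ncstn, a subunit of the gamma-secretase protease, and the sheddase gene Adam17 had log2 fold changes of -0.20 and -0.16, neither past the threshold. Mib1, a ubiquitin ligase that activates Notch ligands, was named after its values were seen, as the gene DESeq2 and voom called. It was at 36.1, 31.6, 46.3, 34.8 and 28.1 CPM in wt/wt replicates 1 to 5 and at 41.1, 83.7, 63.3 and 60.3 CPM in ko/ko replicates 1 to 4. Only ko/ko replicate 1 lay within the wt/wt range. The log2 fold change was 0.81 (SE 0.21), with an adjusted p of 0.152 in edgeR, 0.0204 in DESeq2 and 0.0205 in voom.

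The 5 tested Notch target genes all had negative values, with a median of -0.53, and none passed. Hes1, a transcriptional repressor and the most abundant of them, was at 318 ± 144 CPM in wt/wt and 248 ± 121 CPM in ko/ko (SD, n = 5 and 4), which overlapped. Hey1 had a log2 fold change of -0.26 (SE 0.19). Heyl was at -0.53 (SE 0.52), and at 0.52 with the Gm10800 group as a covariate. Hey2 was at -0.78 with all libraries and at 0.04 when the 3 libraries richest in that group were left out.

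**Figure D5:**
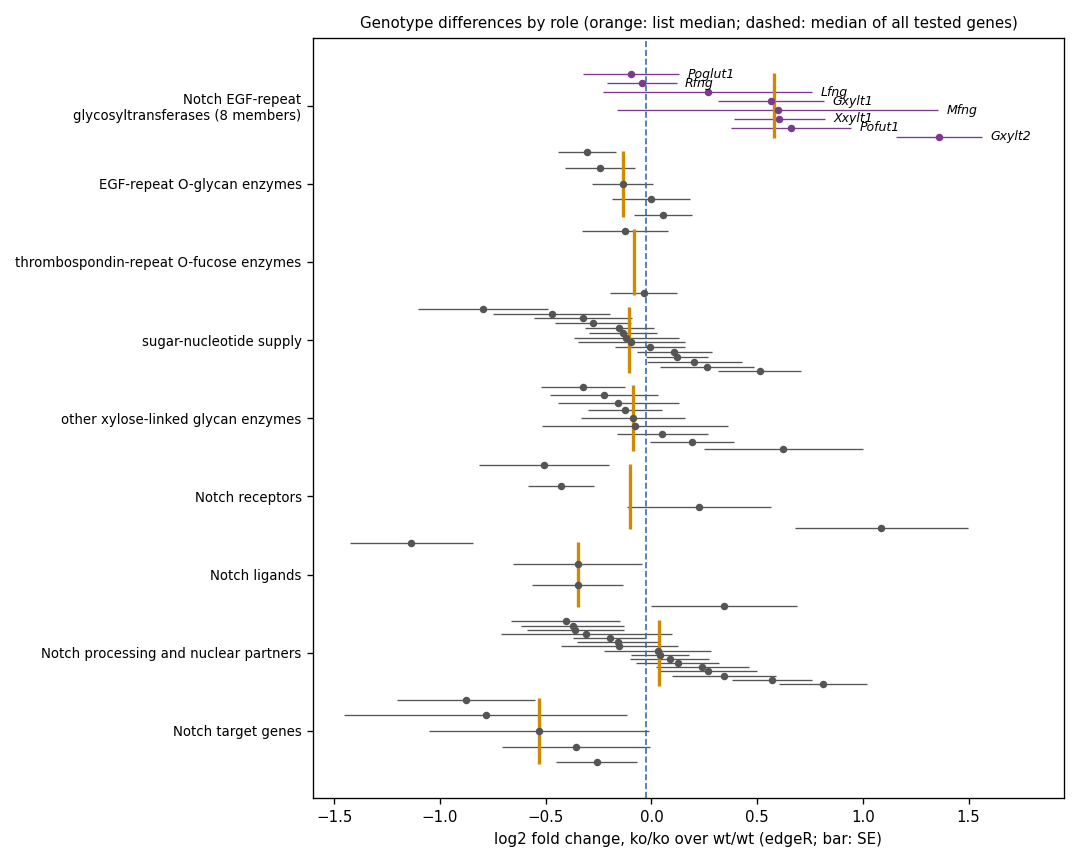
Log2 fold changes (ko/ko over wt/wt, edgeR, bars are SE) of the 8 members (purple, named) and of the tested genes of 8 lists around them (grey). Orange bars are list medians and the dashed line is the median of all tested genes. The median of the members is 0.58, and the list medians lie between -0.53 and 0.03.

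Markers of other cells were measured beside these values as shares of each library, 14 measures in all, and in an exact two-sided permutation test over the 9 libraries none had an adjusted p under 0.05. The smallest exact permutation p that 5 and 4 libraries can give is 0.0159. Over 14 measures it adjusts to 0.222 unless several measures are as low, so even a fully separated measure could not pass by itself. The lack of calls is therefore not read as equal cell composition. The share of 4 lymphatic endothelial genes was 0.0183% to 0.0550% in wt/wt and 0.0106% to 0.0140% in ko/ko, without overlap (exact p = 0.0159, adjusted p = 0.222). The share of 8 myeloid genes was 0.000440% to 0.00371% in wt/wt and 0.000744% to 0.0219% in ko/ko (exact p = 0.0476, adjusted p = 0.222). The share of 4 T cell genes was 3.88e-05% to 0.000373% in wt/wt and 0.000353% to 0.000747% in ko/ko (exact p = 0.0317, adjusted p = 0.222). Most of this T cell share was Cd3e, with 466 counts over the 9 libraries, beside 34 of Cd3g, 11 of Cd3d and 35 of Trdc. These 3 shares differed between genotypes only before adjustment. Their part in the values of the members and of the list genes, Dll4 included, was not tested. Fibroblast genes, 1.46% to 3.03% in wt/wt and 1.97% to 3.28% in ko/ko, and basal keratinocyte genes, 0.125% to 0.308% and 0.153% to 0.271%, overlapped (exact permutation adjusted p = 0.626 for each). A summed share does not speak for each gene. Itga6, the gene of CD49f, was at 53.4 ± 9.04 and 83.0 ± 14.6 CPM (SD, n = 5 and 4), with overlap. Its adjusted p was 0.157 in edgeR, 0.0267 in DESeq2 and 0.0187 in voom. The log2 fold changes of Krt14 and Krt5 were 0.07 and -0.11. Mitochondrially encoded genes took 2.77% to 7.55% and 1.81% to 6.30% (exact permutation adjusted p = 0.444).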

How the data were processed

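RNA was sequenced from 5 wt/wt and 4 ko/ko samples. The authors deposited 1 table of unnormalized counts, made with GSNAP (2018-07-04) and featureCounts 1.6.2 on mm10 per the submitters' processing notes; its name gives Ensembl release 87. How strand, multi-mapped reads and duplicates were treated is not given in the sources used here. Reads of overlapping or near-identical genes may therefore be shared between them. Of 49763 rows, 92 spike-in rows were left out. Symbols were matched by identifier to GENCODE M21 for 49326 of 49671 gene rows; positions are those of the authors' table.

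Members and lists were chosen with earlier results of these data known. Counts were fitted with edgeR 4.0.16 in R 4.3.3 (filterByExpr, which removed 31236 genes, TMM factors, robust glmQLFit, two-sided F test, Benjamini-Hochberg adjustment, threshold 0.05). The SE was taken as the size of the log2 fold change divided by √F. RPKM used the deposited exon length; tests of levels used log2 CPM with a prior count of 2. Permutation tests used scipy 1.17.1. Other settings were RLE factors, upper-quartile factors, library totals alone, no filter, a stricter filter (1 CPM in 4 libraries), DESeq2 1.42.0, limma 3.58.1 voom, robust=FALSE, an exon length trend (loess span 0.3), a Gm10800-group covariate, abundant genes left out, and libraries left out. Only the main edgeR fit was tested on simulated counts, and the other settings were not. Every pair of libraries differed beyond sampling noise (lowest chi-square per degree of freedom 23.9), and the labels name no batch. Intervals and limits cover counting error only.

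Named are all 8 members, the 3 most abundant genes of each list and any with an edgeR adjusted p under 0.05, and the 5 genes nearest to Gxylt2 under each centring; other names were chosen after their values were seen. The values of 1 gene that this rule names are not reported here. RefSeq windows (GRCm38.p6) were found for 7 of the 8 members.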

Additional observations from a re-analysis of the deposited data

Results flagged for a closer look

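In 11 of 90 groups of 4 or 5 libraries 1 library stood apart from the others by Dixon's criterion at the 95% level. For independent groups of normally spread values chance gives about 1 in 20 groups, or 4.5. Shares of library counts depend on each other and were not put on a log scale. The number 11 is therefore not read as an excess. Among the members, Mfng in wt/wt replicate 1 was at -3.34 log2 CPM, from 0 counts, and at 0.91 to 2.00 in the other wt/wt libraries. Of the other Notch genes, Notch3 in wt/wt replicate 1 was at 1.87 log2 CPM (others 2.84 to 3.10), and Dll1 in ko/ko replicate 3 was at 4.15 (others 3.53 to 3.59).

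The remaining 8 were shares of library counts. In wt/wt replicate 1 the Gm10800 group took 0.303% (others 0.000409% to 0.0388%) and myeloid genes 0.00371% (0.000440% to 0.000902%). In wt/wt replicate 2 basal keratinocyte genes took 0.308% (0.125% to 0.172%) and hair matrix and inner root sheath genes 0.0119% (0.000280% to 0.00201%). In ko/ko replicate 3 hair matrix and inner root sheath genes took 0.000835% (0.000194% to 0.000235%). In ko/ko replicate 1 mitochondrially encoded genes took 6.30% (1.81% to 2.01%), adipocyte genes 0.00104% (0.000340% to 0.000435%) and skeletal muscle genes 0.00408% (0.00209% to 0.00233%). Outside the gene rows, the 92 spike-in sequences had 6 counts in wt/wt replicate 1 and 1 to 3 in each other library, where a count of 0 would allow up to 3.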

How the results depend on the processing

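The log2 fold changes of the 8 members and of the 23 list genes that the rule covers stayed within 1 SD of the spread between libraries in 648 of 650 comparisons. The exceptions were Notch2 with the exon length trend removed (-0.67) and Heyl with the Gm10800 covariate (0.52). This yardstick is wide where libraries differ much: Mfng moved from 0.60 to 1.87 and stayed within it. Poglut1 and Rfng also stayed within it, although each changed sign in 5 of 21 settings. The number of genes called did depend on the setting. Against 1 gene higher and 0 lower in the fit described, 4 were higher without scaling factors, 26 higher and 2 lower without the filter, 438 and 192 with DESeq2, 1217 and 585 with voom, 0 higher with the exon length trend removed, 2 and 1 with the covariate, 7 higher when the 3 libraries with the most Gm10800-group reads were left out, and 0 to 12 higher with 1 library left out (12 without ko/ko replicate 4, and 0 without any other). Members past the threshold were 0 in that fit, 1 without scaling factors, 1 without the filter and 1 with DESeq2 (Gxylt2 each time), and 2 with voom. Nothing is read from these member counts, because the members were chosen with this contrast known. List genes past the threshold were 0 in the main fit, against 1 higher and 1 lower with DESeq2 and likewise with voom.

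Of the level comparisons, 68 of 91 kept their side of the threshold and direction, those with Gxylt2 included as a description. With 1 library left out, Poglut1 over Xxylt1 passed in 9 of 9 fits, Xxylt1 over Gxylt1 in 1 and Mfng over Lfng in 1. Rfng over Poglut1 and Pofut1 over Mfng passed in none. Gxylt2 over Pofut1 is not counted as a call, because it includes the values known when Gxylt2 was chosen. Pairs past the threshold were 0 in wt/wt or ko/ko libraries alone, which cannot pass at that size. The difference of Rfng over Poglut1 reversed to -0.50 with the longest transcript and to -0.51 with coding length, past the threshold in both. Not past it were the reversals of Xxylt1 over Gxylt1 to -0.084 and Gxylt1 over Gxylt2 to -0.014 with coding length, Gxylt1 over Gxylt2 to -0.13 in ko/ko alone, and Gxylt2 over Pofut1 to -0.028 with the longest transcript. Pofut1 over Mfng passed with coding length (2.26). The alternative lengths change the divisor of each gene. No library measure passed in any of the alternatives run. With this few libraries the smallest exact p is too large for a measure to pass by itself over 14 measures. This outcome therefore says nothing about how stable the shares are. No paired analysis was possible because replicates were numbered in accession order, which ties no wt/wt library to a ko/ko library. Lfng, with 8 to 29 counts per library, is limited by depth and has no value under the stricter filter, which it did not pass.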
